A study of Homo sapiens with 18 samples.

Results

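The androgen response of LNCaP cells with E2F1 silenced was measured in 6 of the 18 RNA libraries of the study: 3 of cells given E2F1 siRNA and R1881, and 3 of cells given E2F1 siRNA and vehicle. The members were chosen by their labels, and every gene of the count table entered the comparison. LNCaP is an established human prostate cancer line that depends on androgen, and R1881 is a synthetic androgen. All groups were seeded in androgen-poor medium, made with charcoal-stripped serum, and transfected the next day with a SmartPool, a mixture of siRNAs against 1 target. The 6 groups of 3 replicates combined a pool against E2F1, a pool against E2F2 or a non-targeting pool (here control siRNA) with vehicle or 0.1 nM R1881. RNA was taken 48 h after treatment began. The wait from transfection to treatment is given as 42 h in the design text and as 48 h in the protocol. An siRNA pool lowers a transcript without removing it, the cells are of 1 line, and the libraries were made with an exome-capture kit.

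Androgens act through a nuclear hormone receptor at androgen response elements near target genes. In prostate luminal cells these genes include the kallikreins, TMPRSS2 and FKBP5, and a further set is repressed. E2F1 pairs with a DP partner at promoters of genes for DNA synthesis and is held in check by the retinoblastoma protein until a cell commits to S phase. Many genes of mitosis carry another promoter element, the cell cycle homology region (CHR), through which the DREAM and MuvB complexes act.

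Promoters of 3 genes named in the results are shown, 1 from each of these classes: KLK3 from the androgen-induced genes, CDC6 from origin licensing and MKI67 from mitosis. They are RefSeq sequences of GRCh38.p14, from 250 bases before to 50 bases after the annotated start, 5′ to 3′ on the strand of the gene. Capitals mark AGAACA, the androgen response element half-site, in KLK3, the E2F letters TTTGGCGG and TTTGGCGC in CDC6, and the CHR letters TTTGAA in MKI67. The windows are chr19:50854665-50854964 (plus strand), chr17:40287629-40287928 (plus strand) and chr10:128126374-128126673 (minus strand).
KLK3: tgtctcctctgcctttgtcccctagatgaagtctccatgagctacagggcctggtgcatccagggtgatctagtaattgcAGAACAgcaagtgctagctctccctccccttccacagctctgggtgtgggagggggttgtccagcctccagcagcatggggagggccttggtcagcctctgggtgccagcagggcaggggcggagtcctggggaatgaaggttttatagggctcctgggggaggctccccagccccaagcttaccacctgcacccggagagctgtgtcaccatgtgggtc
CDC6: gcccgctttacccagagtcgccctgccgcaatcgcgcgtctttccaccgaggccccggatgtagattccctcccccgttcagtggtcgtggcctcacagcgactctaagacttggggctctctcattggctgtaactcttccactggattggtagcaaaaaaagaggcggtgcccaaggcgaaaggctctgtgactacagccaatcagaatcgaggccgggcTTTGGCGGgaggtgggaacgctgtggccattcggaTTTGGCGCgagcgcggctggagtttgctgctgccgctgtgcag
MKI67: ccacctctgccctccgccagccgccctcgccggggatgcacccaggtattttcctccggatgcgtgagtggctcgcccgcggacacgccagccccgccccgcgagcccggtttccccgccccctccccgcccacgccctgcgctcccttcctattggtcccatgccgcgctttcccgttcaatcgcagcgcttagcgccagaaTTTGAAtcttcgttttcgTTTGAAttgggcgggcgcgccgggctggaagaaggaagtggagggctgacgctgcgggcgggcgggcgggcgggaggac
The KLK3 half-site began 170 bases before the start, the first CDC6 match 28 bases before it and the first MKI67 match 47 bases before it. The same letters were searched on both strands in all RefSeq promoters of tested genes, which matched 10941 of the 15185. TTTCGCGC, TTTGGCGC, TTTCCCGC or TTTGGCGG (the E2F set) was present for 6.8% of those genes and for 25 of 40 origin licensing and replication fork genes (62.5%). It was present for 7 of 55 mitosis genes (12.7%). TTTGAA was present for 13.3% of all matched genes, for 39 of the 55 mitosis genes (70.9%) and for 2 of the 40 licensing genes (5.0%). AGAACA was present for 12.8% of all matched genes, for 13.2% of those that rose with R1881 under E2F1 siRNA and for 15.3% of those that fell. It was found for 2 of 16 androgen-induced secretory genes and for 4 of 22 androgen-induced cofactor genes. No promoter held the full inverted repeat of AGAACA with 3 bases between. The shortest of these letters occur often by their length alone, and a match describes the window, not a bound site.

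The libraries held 10930204 to 14819879 gene counts, and 15185 of 58037 listed genes had enough counts to be tested. Levels are CPM, read counts scaled to library size by TMM, and responses are log2 fold changes (R1881 minus vehicle) ± SE from an edgeR quasi-likelihood fit to all 18 libraries, with n = 3 per group. Genes with a Benjamini-Hochberg adjusted p under 0.05 are said to rise or fall. Replicate 3 stood apart from replicates 1 and 2 in every group. With E2F1 siRNA and vehicle the chi-square per degree of freedom across genes was 4.42 between replicates 1 and 2, and 36.2 and 45.2 against replicate 3. With E2F1 siRNA and R1881 it was 2.29, against 10.6 and 7.98. Results that rest on replicate 3 are given with and without it below. The labels call the replicates biological but do not name separate cultures, so p-values cover the spread between these samples. The luminal markers KRT8, KRT18, EPCAM, CDH1, HOXB13 and FOLH1 were present in all 6 libraries, each at 57.1 CPM or more. Of 21 markers of immune, endothelial, stromal, basal, liver and blood cells, 10 were at 0 in all 6 and 5 passed 1 CPM in any of them.

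E2F1 itself stayed low when androgen was added. Coordinates here and below are GRCh38, from GENCODE 29. E2F1 (ENSG00000101412.12, chromosome 20, 33675683 to 33686404) stood at 5.79, 5.92 and 8.77 CPM in replicates 1 to 3 with E2F1 siRNA and vehicle, and at 10.1, 8.69 and 10.3 with R1881. The corresponding control libraries held 35.2, 33.6 and 43.0 CPM with vehicle and 73.4, 68.6 and 81.2 with R1881. All 6 libraries given E2F1 siRNA lay below all 6 given control siRNA, while the vehicle and R1881 libraries of the silenced cells overlapped. The E2F1 response was 0.50 ± 0.17 with E2F1 siRNA (adjusted p = 0.0556), which did not pass, and 1.00 ± 0.16 with control siRNA (adjusted p = 1.73e-04). With the replicate number as a block it passed with E2F1 siRNA (adjusted p = 0.00214). The difference between the 2 responses was -0.49 ± 0.23 (adjusted p = 0.498). E2F2 was scarce and varied, at 1.87 ± 0.543 CPM with vehicle and 1.45 ± 0.274 with R1881 (SD, n = 3). E2F2 siRNA also left E2F1 below control, at 12.6 ± 2.25 CPM with vehicle and 24.1 ± 2.29 with R1881.

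**Figure D1:**
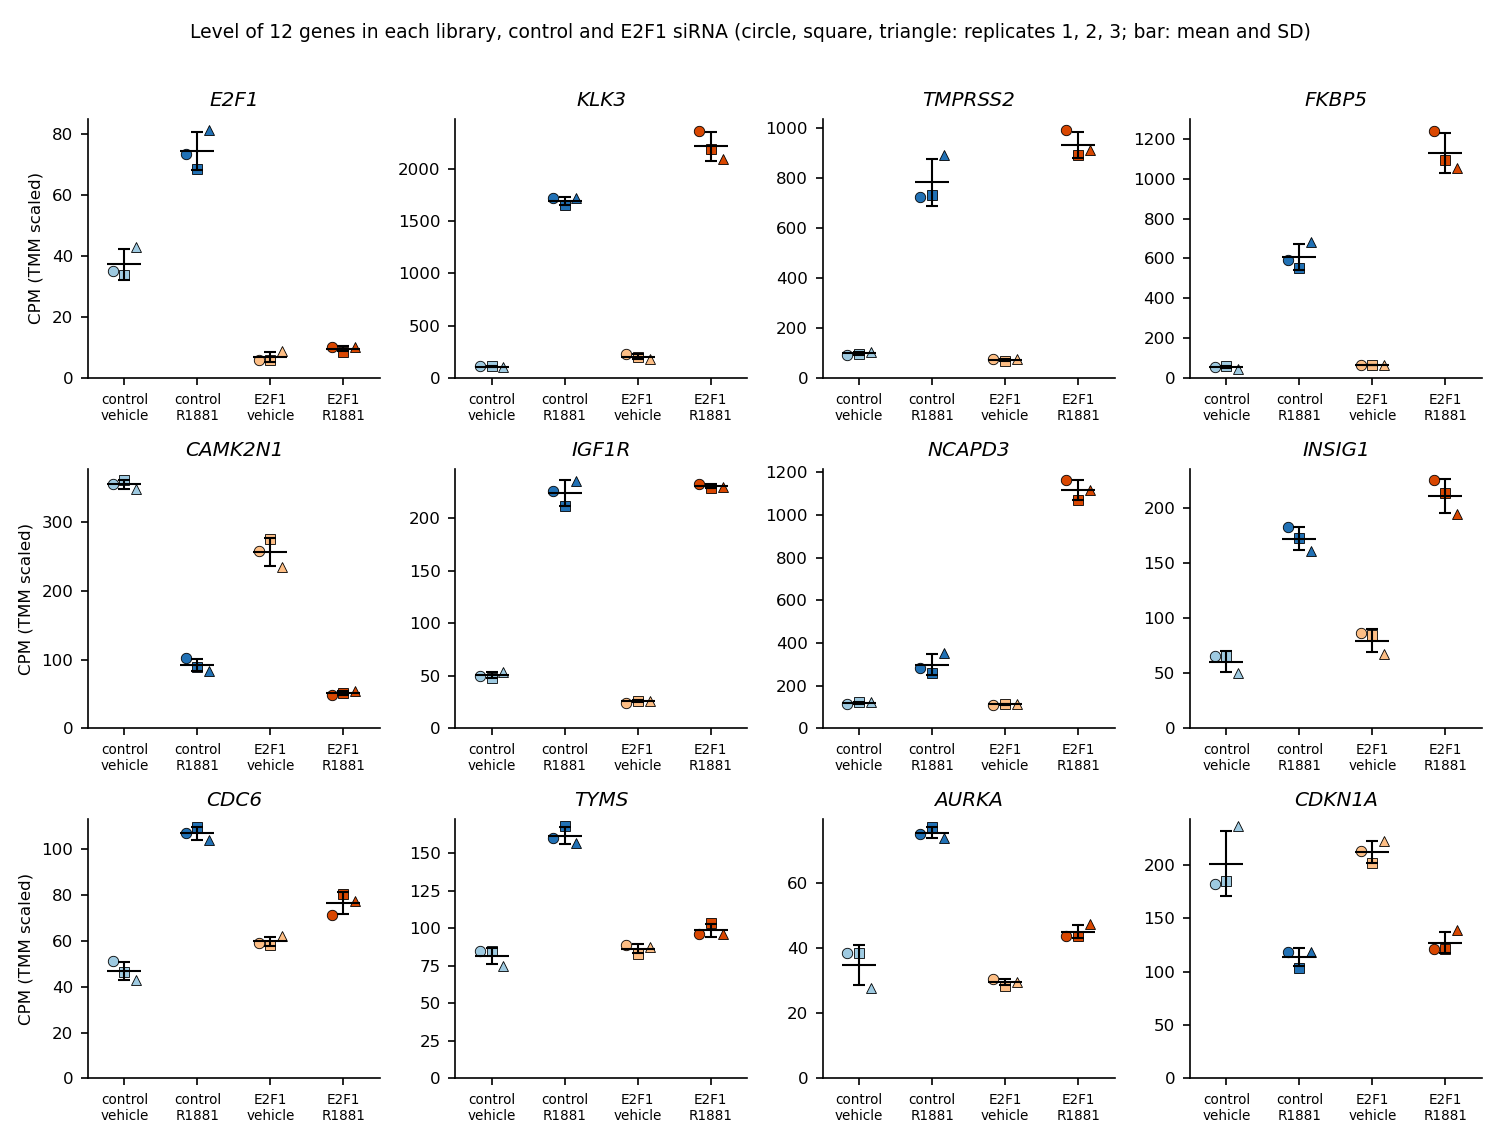
Level of 12 genes in each library (vertical axes: CPM after TMM scaling, from 0) in the 4 groups of control and E2F1 siRNA with vehicle or R1881. Points are libraries, with shapes for replicates 1, 2 and 3, and bars give mean and SD (n = 3). KLK3, TMPRSS2, FKBP5, IGF1R, NCAPD3 and INSIG1 lie far higher with R1881 under both pools. CDC6, TYMS and AURKA lie highest in control siRNA with R1881.

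R1881 changed 3009 of the 15185 tested genes in cells with E2F1 silenced, or 19.8%. It raised 1528 (10.1%) and lowered 1481 (9.75%), and 1133 of the 3009 moved by 2-fold or more, 510 up and 623 down. The 3 R1881 libraries lay wholly above or below the 3 vehicle libraries for 5199 genes (34.2%). With the replicate number as a block, 4661 genes were called, and in replicates 1 and 2 alone 5829 were. Of the called responses of the genes chosen for naming, 13 lost their call without a filter on low counts, among them those of FEN1, CDC6, TICRR, DHODH, SLC29A1, TFDP2, CKS2, NOP2, NOP16, LYAR, ATXN1 and LNX2. When only its own groups were fitted 10 lost it, among them DHODH, TFDP2, CKS2, NOP2, NOP16, LYAR, NEB, ATXN1 and LNX2. With control siRNA, 2093 genes rose (13.8%) and 2012 fell (13.2%). Those 6 control libraries are separate from the 6 with E2F1 siRNA. Of the genes that rose with E2F1 siRNA, 1092 also rose with control siRNA, which is 71.5% of the first set and 52.2% of the second. Of those that fell, 1131 also fell with control siRNA, or 76.4% and 56.2%. A further 11 genes were called in both but in opposite directions. Across tested genes, which are not independent replicates, the 2 responses had a Pearson r of 0.824.

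The secreted and luminal products of androgen action rose with E2F1 silenced. Of 21 tested genes of this list 17 rose and 1 fell (median log2 2.20, against -0.01 over all tested genes), and with control siRNA 15 rose and 2 fell (median 1.67). KLK3 (ENSG00000142515.14, chromosome 19, 50854915 to 50860764), which encodes prostate-specific antigen, had 235, 197 and 187 CPM with vehicle and 2365, 2189 and 2093 with R1881. Every R1881 library was far above every vehicle library (log2 3.42 ± 0.13, adjusted p = 3.30e-11). With control siRNA KLK3 went from 115, 113 and 103 to 1717, 1650.0 and 1717 CPM. KLK3 was thus higher with E2F1 siRNA than with control under both treatments, with no overlap between pools, and the difference between the responses, -0.52 ± 0.17, did not pass (adjusted p = 0.206). Its neighbour KLK2, a related protease, went from 20.2 ± 3.47 to 633 ± 43.5 CPM (log2 4.97 ± 0.16, adjusted p = 5.98e-12). KLK2 and KLK3 are similar in sequence and their counts may share reads. TMPRSS2 (ENSG00000184012.11, chromosome 21, 41464551 to 41531116), a serine protease of the cell surface, had 75.5, 68.5 and 77.0 CPM with vehicle and 992, 893 and 912 with R1881. It rose by 3.66 ± 0.10 (adjusted p = 1.23e-12), by 0.68 ± 0.13 more than with control siRNA (adjusted p = 0.0206), a difference that was no longer called without any 1 of 7 of the 12 libraries. CHRNA2, of the nicotinic acetylcholine receptors, went from 2.04 ± 0.396 to 112 ± 8.43 CPM (log2 5.77 ± 0.19, adjusted p = 5.98e-12). The metalloreductase STEAP4 had 1974 counts over the 3 R1881 libraries and 1 over the 3 vehicle libraries, a ratio of 1992 (95% counting interval 357 to 7.87e+04). With control siRNA it had 506 and 2 counts, a ratio of 265 (73.0 to 2195), so the intervals overlap. Such intervals cover counting error only.

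Androgen-induced cofactors, kinases and transporters rose in nearly every case: 33 of 35 rose and none fell with E2F1 siRNA (median log2 2.04), and 32 rose and 2 fell with control siRNA (median 1.75). FKBP5, a co-chaperone of steroid receptors, had 66.1, 64.7 and 63.3 CPM with vehicle and 1241, 1093 and 1052 with R1881. The groups were far apart (log2 4.12 ± 0.14, adjusted p = 9.15e-12), and the R1881 libraries also lay above the control ones, at 592, 553 and 682 CPM. The FKBP5 responses had a difference of 0.66 ± 0.17 (adjusted p = 0.0997, and 0.0248 with the replicate block). IGF1R, the receptor of insulin-like growth factor 1, had 24.4, 26.2 and 26.4 CPM with vehicle and 233, 229 and 230.4 with R1881. In control cells it had 50.0, 47.7 and 53.5 and 226, 212 and 236. Both pools reached about the same level with R1881, from a vehicle level that was lower with E2F1 siRNA in every library. The IGF1R response was 3.17 ± 0.07 (adjusted p = 2.34e-13), larger than with control siRNA by 1.01 ± 0.10 (adjusted p = 2.48e-04). The call held when any 1 of the 12 libraries of the difference was left out. Against E2F2 siRNA the difference in the IGF1R response was not called. PMEPA1, a membrane regulator of TGF-beta signalling, rose by 3.02 ± 0.11 (adjusted p = 3.27e-11), and MAF, a leucine zipper factor, by 3.36 ± 0.14 (adjusted p = 1.22e-10). Over the 35 genes, 2 responses were larger with E2F1 siRNA than with control (0.375% of tested genes were) and none was smaller.

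Androgen-repressed genes fell: 21 of 26 fell and 2 rose with E2F1 siRNA (median log2 -2.50), and 22 fell and 1 rose with control siRNA (median -2.18). CAMK2N1, an inhibitor of calcium/calmodulin-dependent kinase II, had 258, 276 and 235 CPM with vehicle and 47.9, 51.9 and 53.9 with R1881. The groups did not overlap (log2 -2.32 ± 0.09, adjusted p = 8.37e-11), and both silenced groups lay below the matching control ones, which had 355 ± 6.95 and 91.7 ± 9.07 CPM. LRRN1, a leucine-rich repeat membrane protein, fell from 176 ± 6.54 to 15.8 ± 1.06 CPM (log2 -3.48 ± 0.10, adjusted p = 1.73e-12). The kappa opioid receptor gene OPRK1 fell by 3.11 ± 0.15 (adjusted p = 4.50e-10) from 35.7 ± 0.526 CPM. DDC, which makes dopamine and serotonin from their precursors, fell by 2.29 ± 0.14 (adjusted p = 4.73e-09). The repressed list was already lower with E2F1 siRNA and vehicle than with control and vehicle for 13 of 26 genes (2.92% of tested genes were lower there) and higher for 2 (2.36%). That contrast shares its vehicle libraries with the responses. Of 26 genes on the list of receptor cofactors 2 rose and 6 fell with E2F1 siRNA (30.8% called, against 19.8% of all tested genes). The corepressor CTBP1 fell by 0.97 ± 0.12 (adjusted p = 1.62e-05), the coactivator NCOA1 by 0.51 ± 0.07 and NCOA2 by 0.46 ± 0.07 (adjusted p = 7.23e-05 and 9.34e-05).

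The largest changes ran from nearly no transcript to a clear level or the reverse. SLC2A3, a glucose transporter, had 0 counts with vehicle and 181 with R1881, so it was at least 60.9-fold higher (3 counts over the group as the floor). CCDC141 had 3 and 1086 counts (ratio 365, interval 125 to 1774), the amino acid transporter SLC38A4 had 1 and 266 (268, 47.8 to 1.06e+04) and TTN, titin of striated muscle, had 1 and 247 (249, 44.3 to 9883). HPGD, which inactivates prostaglandins, rose from 0.109 ± 0.0588 to 10.8 ± 3.03 CPM (log2 6.56 ± 0.46). ST6GALNAC1, a sialyltransferase, rose from 0.955 ± 0.394 to 67.6 ± 2.67 CPM (log2 6.11 ± 0.22, adjusted p = 2.10e-11). The adaptor LAT2 rose by 6.29 ± 0.30, the alpha-tubulin TUBA3D, which has near-identical copies, by 5.96 ± 0.34, and the pepsinogen PGC by 5.79 ± 0.36 (adjusted p = 3.65e-10, 3.75e-09 and 8.02e-09). Among the falls, the potassium channel gene KCNK3 had 57 counts with vehicle and 0 with R1881, at least 18.8-fold lower. DAB1, an adaptor of reelin signalling, had 137 and 1 counts (ratio 136, 24.0 to 5402), the potassium channel gene KCNU1 had 92 and 2 (45.6, 12.3 to 382) and FAM131B had 66 and 2 (32.7, 8.70 to 276). PLD1, phospholipase D1, fell from 12.7 ± 0.257 to 0.594 ± 0.224 CPM (log2 -4.41 ± 0.26, adjusted p = 4.54e-09) and DAPK1, a death-associated kinase, from 13.2 ± 0.970 to 0.904 ± 0.369 CPM (log2 -3.85 ± 0.28, adjusted p = 5.69e-08). CCDC80, HEPACAM, AMIGO2, VWA2, MATN2 and CCDC83 fell by 3.53 to 5.00 on the log2 scale. All of the genes in this paragraph moved the same way, and were called, with control siRNA.

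Genes of DNA replication, in contrast, showed little response to R1881 once E2F1 was silenced. Of 47 genes of origin licensing and the replication fork 3 rose and none fell with E2F1 siRNA (median log2 0.10), where 40 rose and none fell with control siRNA (median 0.79). The response was lower with E2F1 siRNA in all 47, with differences from -0.89 (MCM10) to -0.20 (POLD2) on the log2 scale, and the difference passed the test in 8, all lower (0.310% of tested genes were called lower). Fewer cycling cells and less RNA per cell cannot be told apart in bulk samples. With vehicle few of these genes differed between pools: 1 of the 47 genes was higher and 1 lower with E2F1 siRNA. With R1881, 33 were lower and none higher (4.92% and 4.42% of tested genes). These contrasts share libraries with the responses and describe the same data by treatment. Since libraries with the same replicate number deviated together, the fit with that number as a block is given too: there 9 of 47 rose and 1 fell with E2F1 siRNA (16.0% of tested genes rose), and 32 responses were called smaller than with control (2.61%). In replicates 1 and 2 only, 12 rose and 2 fell (20.0% rose) and 44 were called smaller (6.72%). Without replicate 3 of control siRNA with vehicle, an alternative for the lists chosen after seeing the data, 15 were called smaller. With E2F2 siRNA these genes also rose in smaller number than with control siRNA: 25 rose and none fell (median 0.48), where 1791 of the 15185 tested genes rose. In 6 of the 47 the response was called lower with E2F1 than with E2F2 siRNA (119 of all tested genes were), and in none higher. Relative to E2F1 siRNA with vehicle, the median level of the list was -0.59 to -0.42 with E2F2 siRNA and R1881.

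CDC6, which loads the MCM helicase at origins and whose promoter with its E2F letters is printed above, had 59.2, 58.0 and 62.1 CPM with vehicle and 71.5, 80.7 and 77.4 with R1881. Control libraries had 51.0, 46.2 and 43.0 and 107, 109.9 and 104 CPM. The R1881 libraries were above the vehicle ones under both pools, and the control R1881 libraries were the highest. CDC6 rose by 0.36 ± 0.09 with E2F1 siRNA (adjusted p = 0.0101) and by 1.19 ± 0.09 with control siRNA, a difference of -0.84 ± 0.13 (adjusted p = 0.00647). Its rise with E2F1 siRNA was not called without replicate 2 of the R1881 group (log2 0.32). MCM4, a helicase subunit, had 179, 169.7 and 178 CPM with vehicle and 166, 177 and 173 with R1881, and the groups overlapped. Its response was -0.03 ± 0.08 (adjusted p = 0.867), against 0.82 ± 0.08 in control cells, where the level went from 171 ± 12.5 to 302 ± 5.97 CPM (difference -0.85 ± 0.11, adjusted p = 0.00218). FEN1, the flap endonuclease of lagging-strand synthesis, rose from 67.2 ± 4.17 to 86.1 ± 5.33 CPM (log2 0.36 ± 0.08, adjusted p = 0.00372), and its difference from the control response was -0.72 ± 0.11 (adjusted p = 0.00647). TICRR, a regulator of origin firing, rose by 0.45 ± 0.14 (adjusted p = 0.0393), a call that was lost without any 1 of 5 of the 6 libraries, all but replicate 3 of vehicle. Of 44 replication histone genes 0 were called with E2F1 siRNA (median -0.04; 3 had an unadjusted p under 0.05 and DESeq2 called 0), where 19 rose and 1 fell with control siRNA (median 0.56). The block fit called 1 up and 2 down with E2F1 siRNA, and replicates 1 and 2 alone 10 up. Under these 2 settings 16.0% and 20.0% of tested genes rose, so 10 of 44 is near the share over all tested genes. HIST1H2AM went from 5.20 ± 1.46 to 3.76 ± 0.357 CPM (adjusted p = 0.0757, 0.0394 with the block) and its difference from the control response was -1.29 ± 0.24 (adjusted p = 0.0206, lost without any 1 of 5 of the 12 libraries). HIST2H2BE had a response of 0.19 ± 0.09 (adjusted p = 0.153, 0.0339 with the block). Histone genes of this class have near-identical copies, so reads may be split among them.

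**Figure D2:**
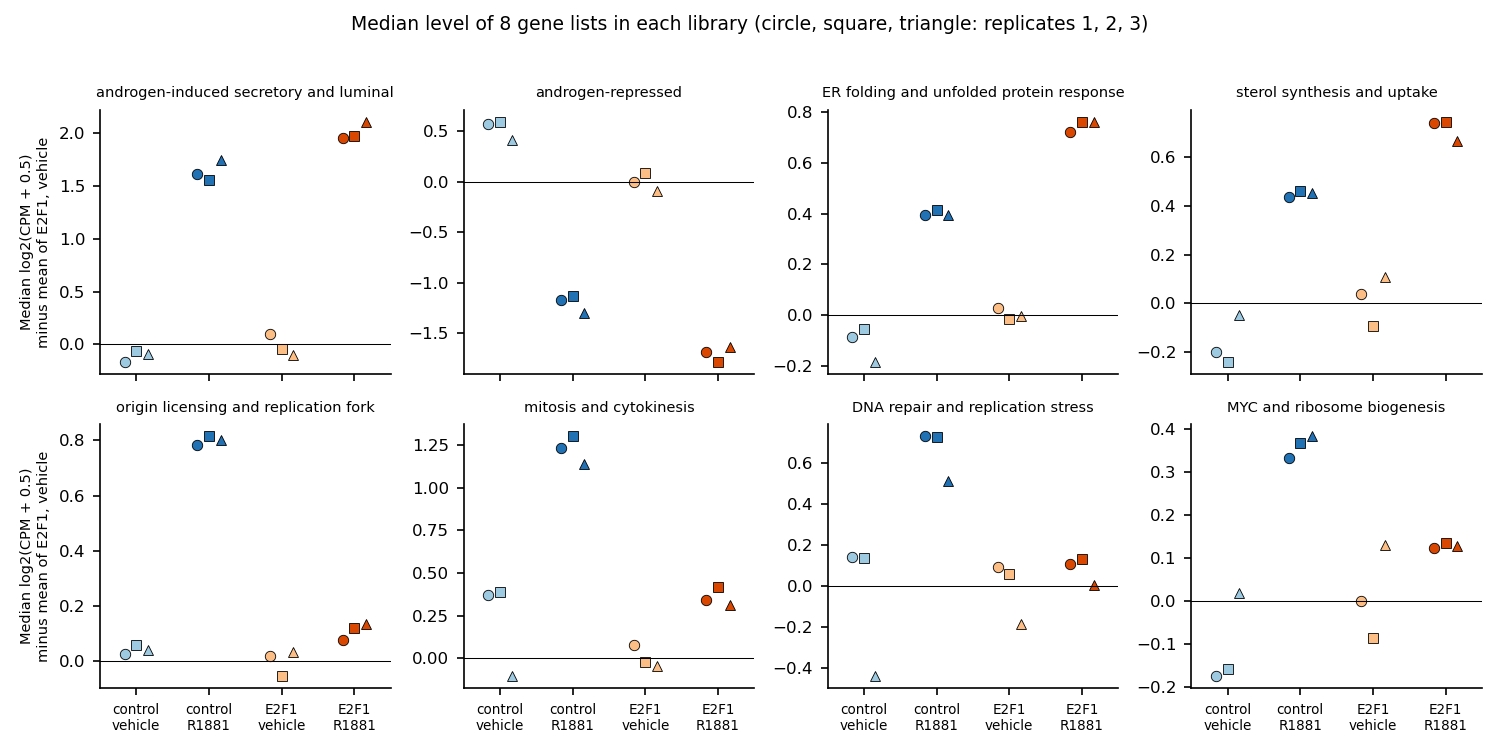
Median level of 8 gene lists in each library of control and E2F1 siRNA, as log2(CPM + 0.5) minus the mean of E2F1 siRNA with vehicle (vertical axes, log2 units, scaled per panel). Each point is 1 library, with shapes for replicates 1, 2 and 3. The androgen-induced, ER and sterol lists are highest in E2F1 siRNA with R1881, while the licensing, mitosis and DNA repair lists are highest in control siRNA with R1881. The median of the licensing list was 0.78 to 0.82 in control libraries with R1881 and 0.08 to 0.14 in E2F1 siRNA libraries with R1881.

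Genes of deoxynucleotide supply rose in smaller number with E2F1 siRNA. Of 16 genes 1 rose and 2 fell with E2F1 siRNA, against 11 and 1 with control siRNA, and 2 responses were called smaller (0.310% of tested genes were called lower). The share called with E2F1 siRNA, 18.8%, is near the 19.8% over all tested genes. TYMS (ENSG00000176890.15, chromosome 18, 657604 to 673578), thymidylate synthase, had 88.8, 82.9 and 87.3 CPM with vehicle and 95.9, 104 and 96.2 with R1881. The groups just missed each other, and the response of 0.19 ± 0.08 did not pass (adjusted p = 0.137). In control cells TYMS went from 84.7, 84.6 and 75.1 to 159.8, 168 and 157 CPM, and the difference between responses was -0.80 ± 0.12 (adjusted p = 0.00469). RRM2, a subunit of ribonucleotide reductase, went from 72.6 ± 5.69 to 95.7 ± 2.33 CPM (log2 0.40 ± 0.14, adjusted p = 0.0577, and 0.00737 with the block). SAMHD1, which degrades deoxynucleotides, fell by 0.54 ± 0.11 (adjusted p = 0.00159). The pyrimidine enzyme DHODH rose by 0.40 ± 0.13 (adjusted p = 0.035) and the nucleoside transporter SLC29A1 fell by 0.56 ± 0.19 (adjusted p = 0.048), both calls that leaving out single libraries removed (any but replicate 3 of vehicle for DHODH, any but replicate 2 of vehicle for SLC29A1). Under the block 5 of the 16 rose and 2 fell. With E2F2 siRNA, in the fit without the block, 7 of the 16 rose and none fell, and 1 response was called lower with E2F1 than with E2F2 siRNA.

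Mitosis genes rose with R1881, but fewer of them with E2F1 silenced. Of 65 genes 13 rose and none fell with E2F1 siRNA (median log2 0.33), and 56 rose and none fell with control siRNA (median 0.96). Over all tested genes 10.1% rose with E2F1 siRNA and 13.8% with control siRNA. With E2F2 siRNA 45 of the 65 rose and none fell (median 0.90), and 5 responses were called lower with E2F1 than with E2F2 siRNA. All 65 responses were lower with E2F1 than with control siRNA, with differences from -0.94 (CDK1) to -0.30 (KIF18A). Of these differences 4 passed (0.310% of tested genes were called lower). The block fit called 33 risen and 33 smaller (16.0% and 2.61% of tested genes), and replicates 1 and 2 alone called 39 risen and 56 smaller (20.0% and 6.72%). Without replicate 3 of control siRNA with vehicle 11 were called smaller. In that library the median level of the list was -0.10 relative to E2F1 siRNA with vehicle, against 0.37 and 0.39 in replicates 1 and 2, and its part in the result was not tested. AURKA (ENSG00000087586.17, chromosome 20, 56369389 to 56392337), the spindle kinase Aurora A, had 30.5, 28.5 and 29.6 CPM with vehicle and 43.8, 43.8 and 47.2 with R1881, and in control cells 38.5, 38.3 and 27.7 and 75.1, 77.1 and 73.7. Its R1881 libraries lay above its vehicle libraries under both pools (E2F1 siRNA log2 0.60 ± 0.11, adjusted p = 5.68e-04). The AURKA responses had a difference of -0.51 ± 0.15 (adjusted p = 0.155, and 0.045 with the block). RACGAP1, of the cytokinetic midzone, rose by 0.54 ± 0.09 and the motor proteins KIF4A and KIF20A by 0.52 ± 0.09 and 0.59 ± 0.12 (adjusted p = 3.10e-04, 5.90e-04 and 0.00233). BIRC5, survivin of the chromosomal passenger complex, went from 62.0 ± 5.30 to 80.7 ± 5.03 CPM (log2 0.38 ± 0.09, adjusted p = 0.007), with a difference from control of -0.60 ± 0.13 (adjusted p = 0.0484, a call lost without any 1 of 10 of the 12 libraries). MKI67, the Ki-67 antigen with the CHR letters above, went from 210.5, 216 and 273 to 280.0, 313 and 327 CPM. The groups did not overlap, yet the response of 0.40 ± 0.15 did not pass (adjusted p = 0.085), and it did with the block (adjusted p = 0.00188). The cyclin CCNA2 had a response of 0.32 ± 0.17 (adjusted p = 0.223), against 1.07 ± 0.17 with control siRNA, and the difference was called with the block (adjusted p = 0.0216).

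Few regulators of these genes were called. Of 17 E2F, RB and DREAM factors 1 rose and 1 fell with E2F1 siRNA (11.8% called, against 19.8% of all tested genes), and 5 and 2 with control. LIN52, a MuvB subunit, rose by 0.62 ± 0.16 (adjusted p = 0.00919) and the DP-family partner TFDP2 fell by 0.26 ± 0.07 (adjusted p = 0.0155), the latter lost without any 1 of 4 libraries (replicate 1 of either group, replicate 2 of vehicle or replicate 3 of R1881). The repressor E2Fs gave responses of 0.21 ± 0.16 for E2F7 (adjusted p = 0.457) and 0.31 ± 0.16 for E2F8 (adjusted p = 0.226), where control cells gave 1.05 ± 0.16 and 1.09 ± 0.16 (adjusted p = 1.04e-04 and 8.87e-05). Their differences did not pass, and were called with the block (adjusted p = 0.0141 and 0.0251) and in replicates 1 and 2 only (adjusted p = 0.00143 and 0.0348). Of 22 G1 cyclins, kinases and inhibitors 3 rose and 1 fell with E2F1 siRNA, against 11 and 1. The share called with E2F1 siRNA, 18.2%, is near the 19.8% over all tested genes. CDKN1A, the inhibitor p21, had 213, 202 and 222 CPM with vehicle and 121, 122 and 139 with R1881. Every R1881 library was below every vehicle library (log2 -0.74 ± 0.12, adjusted p = 1.84e-04), and the response was -0.83 ± 0.12 with control siRNA. The phosphatase CDC25A rose by 0.57 ± 0.10 (adjusted p = 4.65e-04), the kinase CDK6 by 2.11 ± 0.33 (adjusted p = 2.06e-04) from 1.75 ± 0.657 CPM, and CKS2 by 0.33 ± 0.10 (adjusted p = 0.0295, lost without replicate 2 of vehicle or any R1881 library). Cyclin D1 (CCND1) had a response of 0.11 ± 0.06 (adjusted p = 0.263). Cyclin E2 (CCNE2) had one of -0.45 ± 0.31 (adjusted p = 0.399, and 0.0404 with the block).

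Few DNA repair genes were called: 2 of 40 rose and 2 fell with E2F1 siRNA (median 0.06), 29 rose and 1 fell with control siRNA (median 0.73), and 3 responses were called smaller (18 with the block). With E2F1 siRNA 10.0% were called, against 19.8% of all tested genes. Responses were called lower in 0.310% of tested genes (2.61% with the block). With E2F2 siRNA 15 of the 40 rose and 1 fell (median 0.45), and 1 response was called lower and 1 higher with E2F1 than with E2F2 siRNA. UBE2T, of the Fanconi anaemia pathway, rose by 0.43 ± 0.09 with E2F1 siRNA (adjusted p = 0.00213), and by 1.07 ± 0.09 with control siRNA (difference -0.64 ± 0.12, adjusted p = 0.0282, lost without any 1 of 9 of the 12 libraries). The mismatch repair gene PMS2, which has near-identical copies, fell by 0.88 ± 0.09 (adjusted p = 1.19e-06), and BARD1, the partner of BRCA1, by 1.07 ± 0.22 (adjusted p = 0.00233). Few ribosome biogenesis genes were called (9.4%, against 19.8% of all tested genes), with 3 of 32 rising and none falling (median 0.14), against 25 and none in control cells (median 0.51), and 1 response called smaller (10 with the block). With E2F2 siRNA 17 of the 32 rose and 1 fell (median 0.385), and no response was called different between the E2F1 and E2F2 pools. NOP2 and NOP16, nucleolar factors, and LYAR rose with E2F1 siRNA by 0.34 ± 0.11, 0.32 ± 0.10 and 0.40 ± 0.13 (adjusted p = 0.038, 0.0403 and 0.0427). Each of these 3 calls was lost in 4 or more of the 6 fits without 1 library. MYC went from 195, 178 and 269.8 to 182, 182 and 205 CPM, with replicate 3 of vehicle above the rest, and its response of -0.17 ± 0.19 (adjusted p = 0.636) had the opposite sign without that library (log2 0.03).

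**Figure D3:**
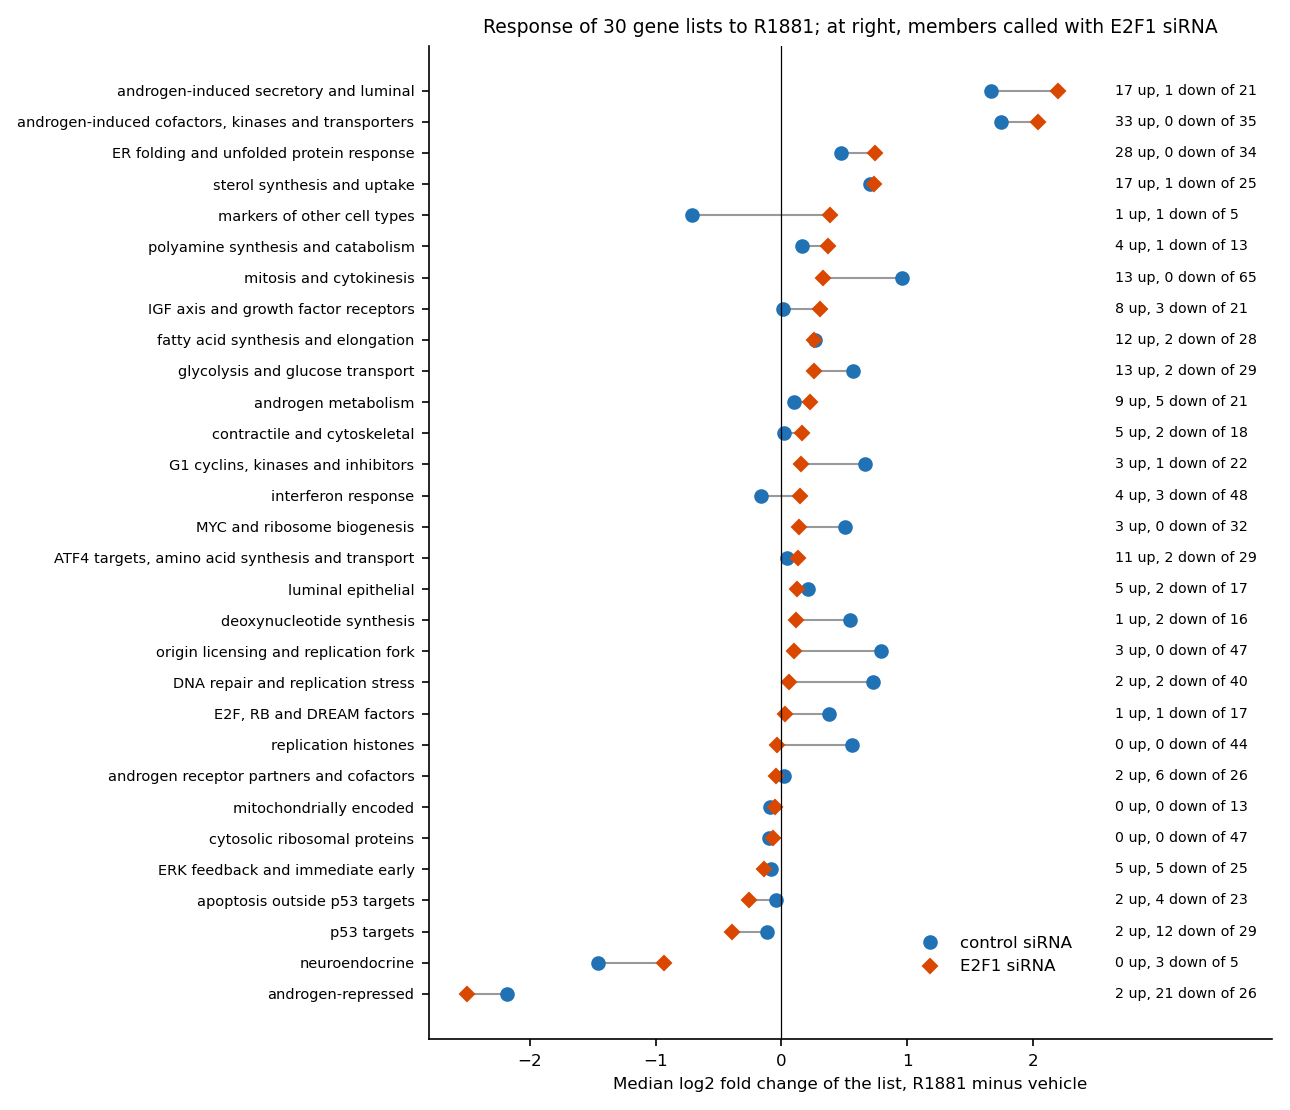
Median log2 fold change of 30 gene lists (horizontal axis, R1881 minus vehicle) with control siRNA (circles) and with E2F1 siRNA (diamonds), ordered by the latter. The text at the right counts members that rose or fell with E2F1 siRNA. The androgen-induced lists lie at 2.20 and 2.04 and the androgen-repressed list at -2.50, and the licensing, DNA repair and histone lists lie near 0 with E2F1 siRNA and at 0.79, 0.73 and 0.56 with control siRNA. The lists of other cell types and of neuroendocrine genes hold 5 tested genes each.

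Of 25 genes of sterol synthesis and uptake 17 rose and 1 fell with E2F1 siRNA (median log2 0.74), against 18 and 1 with control siRNA (median 0.71). With E2F1 siRNA 72.0% were called, against 19.8% of all tested genes. No difference was called (0 of 25 had an unadjusted p under 0.05, and DESeq2 called 0). INSIG1, which retains the sterol sensor in the ER, had 86.5, 84.3 and 67.3 CPM with vehicle and 225, 213 and 194 with R1881. The groups were far apart (log2 1.41 ± 0.14, adjusted p = 1.84e-06). FDFT1, squalene synthase, rose by 1.18 ± 0.09 and ACAT2 by 0.88 ± 0.09 (adjusted p = 1.07e-07 and 1.85e-06). Of 28 fatty acid genes 12 rose and 2 fell (50.0% called, median 0.26), against 13 and 2. ACACA, acetyl-CoA carboxylase, rose from 562 ± 18.7 to 1184 ± 22.9 CPM (log2 1.08 ± 0.06, adjusted p = 2.54e-09). LPIN1, a phosphatidate phosphatase, FADS1, a desaturase, and ACSL3, an acyl-CoA synthetase, rose by 0.98 ± 0.07, 0.99 ± 0.08 and 2.59 ± 0.22 (adjusted p = 2.43e-08, 2.08e-07 and 2.80e-07).

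Genes of the secretory pathway rose in greater number than with control siRNA: 28 of 34 ER folding and unfolded protein response genes rose and none fell (median log2 0.75), against 22 and none with control siRNA (median 0.47). Over all tested genes 10.1% rose with E2F1 siRNA and 13.8% with control siRNA. E2F2 siRNA was close to E2F1 siRNA here: 26 rose and none fell (median 0.74), and 15 of the 34 responses were larger with E2F1 than with E2F2 siRNA. Against control siRNA the response was larger with E2F1 siRNA in 30 of the 34, though none of these differences was called (6 were with the block, all larger, and 3 without replicate 3 of control siRNA with vehicle). Over all tested genes 300 differences were called higher with the block and 126 without that library. SEC24D, of the COPII coat, had 50.0, 47.7 and 48.5 CPM with vehicle and 141, 142 and 138 with R1881, and in control cells 30.2, 31.0 and 29.8 and 66.3, 71.3 and 78.1. Its R1881 libraries were the highest of the 4 groups (log2 1.53 ± 0.08, adjusted p = 1.78e-09). The transmembrane factors CREB3L4 and CREB3L2 rose by 1.51 ± 0.11 and 0.95 ± 0.07, and the KDEL receptor KDELR3 by 1.72 ± 0.15 (adjusted p = 6.46e-08, 1.05e-07 and 4.67e-07). Of 29 ATF4 targets and amino acid genes 11 rose and 2 fell (44.8% called, against 19.8% of all tested genes), against 9 and 5 with control siRNA. The leucine transporter SLC43A1 rose by 2.60 ± 0.17, the glutamine transporter SLC1A5 by 1.22 ± 0.14 and the lipoprotein receptor VLDLR by 0.93 ± 0.13 (adjusted p = 1.50e-08, 6.79e-06 and 4.54e-05).

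Polyamine and sugar metabolism also responded. Of 13 polyamine genes 4 rose and 1 fell (38.5% called, against 19.8% of all tested genes), and 5 and 1 with control siRNA. The block fit called 7 risen with E2F1 siRNA (16.0% of tested genes rose). SMS, spermine synthase, rose by 1.92 ± 0.11, ODC1, ornithine decarboxylase and the entry step, by 1.44 ± 0.11 and the catabolic SAT1 by 1.08 ± 0.09 (adjusted p = 4.84e-09, 1.32e-07 and 1.52e-07). ARG2, which makes ornithine, rose by 0.53 ± 0.09 (adjusted p = 2.57e-04). Of 29 genes of glycolysis and glucose transport 13 rose and 2 fell (51.7% called), and 18 and 2 with control siRNA. UAP1, which makes UDP-N-acetylglucosamine, rose from 79.4 ± 11.0 to 448 ± 42.9 CPM (log2 2.50 ± 0.17, adjusted p = 2.88e-08), and hexokinase HK2 and the regulator PFKFB2 rose by 1.09 ± 0.10 and 1.51 ± 0.14. TXNIP, an inhibitor of glucose uptake, fell by 1.11 ± 0.11 (adjusted p = 9.49e-07).

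Of 29 p53 targets 2 rose and 12 fell with E2F1 siRNA (median log2 -0.40), against 4 and 10 with control siRNA (median -0.12). Over all tested genes 10.1% rose and 9.75% fell with E2F1 siRNA. No difference from the control response was called (7 of the 29 had an unadjusted p under 0.05, and DESeq2 called 2). With E2F2 siRNA 2 rose and 18 fell (median -0.605), and no response was called different between the E2F1 and E2F2 pools. With E2F1 siRNA BTG2, an antiproliferative factor, fell by 1.21 ± 0.10 (adjusted p = 1.18e-07), SESN1, a stress sensor, by 1.56 ± 0.23 (adjusted p = 1.13e-04) and BBC3, the BH3-only protein PUMA, by 1.07 ± 0.16 (adjusted p = 1.14e-04). The death receptor TNFRSF10B rose by 0.64 ± 0.07 (adjusted p = 8.90e-06). Of 23 other apoptosis genes 2 rose and 4 fell, against none and 2 (11 were called with the block). A total of 6 called among 23 is near the 19.8% over all tested genes. BMF, another BH3-only protein, fell from 67.6 ± 5.35 to 14.7 ± 1.80 CPM (log2 -2.20 ± 0.15, adjusted p = 2.75e-08). CASP2 fell by 0.48 ± 0.07 (adjusted p = 1.63e-04), BID by 0.66 ± 0.19 (adjusted p = 0.0187), and the survival gene BCL2L1 rose by 0.47 ± 0.11 (adjusted p = 0.00678). The BID call was lost without replicate 1 or 2 of R1881 or replicate 3 of vehicle.

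Interferon genes differed between siRNA pools in more cases than between treatments when E2F1 was silenced. Of 48 genes 4 rose and 3 fell with R1881 under E2F1 siRNA (14.6% called, against 19.8% of all tested genes). With control siRNA 6 rose and 10 fell, where 13.8% of tested genes rose and 13.2% fell. Between pools, 14 of the 48 were higher with E2F1 siRNA than with control in vehicle (2.36% of tested genes). With R1881, 19 were higher (4.42%), and none was lower in either treatment. The higher level was shared by E2F2 siRNA. The median log2 level of the list, relative to the mean of E2F1 siRNA with vehicle, was 0.28 to 0.35 with E2F2 siRNA and vehicle. It was -0.60 to -0.34 with control siRNA and vehicle. With R1881 it was 0.17 to 0.29 with E2F2 siRNA, 0.03 to 0.12 with E2F1 siRNA and -0.62 to -0.56 with control siRNA. Levels with E2F1 and E2F2 siRNA were not tested against each other. IFI27 had 2.71, 3.45 and 3.00 CPM with E2F1 siRNA and vehicle and 3.45, 5.18 and 4.51 with R1881, where control libraries had 0.537, 0.277 and 0.467 and 0.267, 0.214 and 0.260. All 6 E2F1 siRNA libraries lay above all 6 control libraries, and the R1881 response of IFI27 did not pass under either pool (adjusted p = 0.147 and 0.314). IRF1, a factor of the interferon response, fell by 1.37 ± 0.19 (adjusted p = 4.76e-05) and the GTPase MX1 by 0.92 ± 0.23 (adjusted p = 0.00795), while HERC5 rose by 1.65 ± 0.29 and OAS1 by 0.73 ± 0.17 (adjusted p = 6.29e-04 and 0.00619). BST2, tetherin, gave 0.63 ± 0.26 with E2F1 siRNA (adjusted p = 0.115) and -1.40 ± 0.35 with control (adjusted p = 0.00759), a difference of 2.03 ± 0.44 (adjusted p = 0.0484) that was lost without any 1 of 11 of the 12 libraries.

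Growth factor and cytoskeletal genes moved both ways. In the IGF axis and growth factor receptor list 8 of 21 rose and 3 fell (52.4% called, against 19.8% of all tested genes), against 7 and 3 with control siRNA. Of these responses 2 were called larger with E2F1 siRNA, those of IGF1R and IGF2R (0.375% of tested genes were called higher). IGF2R, which clears IGF2, rose by 0.66 ± 0.06 (adjusted p = 8.29e-07), by 0.47 ± 0.09 more than control (adjusted p = 0.0206, lost without any 1 of 6 of the 12 libraries). EGFR rose by 0.84 ± 0.08 (adjusted p = 9.21e-07), and IGFBP3, which binds the growth factors, fell by 1.97 ± 0.17 (adjusted p = 3.11e-07). Among 25 ERK feedback and immediate early genes 5 rose and 5 fell (40.0% called), against 4 and 4. The phosphatase DUSP4 rose by 1.61 ± 0.15 and ATF3 by 0.47 ± 0.09, and the feedback inhibitor SPRY4 fell by 1.68 ± 0.25 and FOSL2 by 0.56 ± 0.10, with adjusted p from 6.20e-07 (DUSP4) to 0.00131 (ATF3). Of 18 contractile and cytoskeletal genes 5 rose and 2 fell (38.9% called), against 3 and 2 (8 and 3 with the block, where 16.0% of tested genes rose with E2F1 siRNA). Tropomyosin TPM1 rose by 0.71 ± 0.07 (adjusted p = 3.41e-06) and smooth muscle actin ACTA2 by 1.04 ± 0.16 (adjusted p = 1.88e-04), and vimentin VIM fell by 0.88 ± 0.17 (adjusted p = 0.00114).

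Of 21 genes of androgen metabolism 9 rose and 5 fell (66.7% called, against 19.8% of all tested genes), against 6 and 6 with control siRNA. The glucuronidating enzymes UGT2B15 and UGT2B17, whose near-identical sequences may share reads, fell by 2.76 ± 0.24 and 2.76 ± 0.28 (adjusted p = 4.57e-07 and 2.38e-06). AKR1C3, which makes testosterone from its precursor, fell from 1.17 ± 0.367 to 0.156 ± 0.0673 CPM (adjusted p = 3.97e-05), and CYP11A1, the first step of steroid synthesis, rose from 0.214 ± 0.0611 to 3.35 ± 0.158 CPM (adjusted p = 7.80e-07). Of 17 luminal epithelial genes 5 rose and 2 fell (41.2% called), with the keratins KRT18 and KRT19 up by 1.19 ± 0.14 and 1.91 ± 0.27 and OCLN, of tight junctions, and the factor ELF3 down by 1.17 ± 0.08 and 1.15 ± 0.13 (adjusted p from 2.78e-08 for OCLN to 6.83e-05 for KRT19). Of 5 tested neuroendocrine genes 3 fell: DDC, the enolase ENO2 by 0.94 ± 0.16 and neurotensin NTS by 2.71 ± 0.61 (adjusted p = 5.55e-04 and 0.0041). Of the 5 tested markers of other cell types the collagen gene COL3A1 fell by 2.25 ± 0.25 and the basal keratin KRT14 rose by 3.66 ± 0.50, to 1.77 ± 0.249 CPM. The summed level of all 21 markers was 26.0 to 30.0 CPM with vehicle and 23.1 to 27.5 CPM with R1881, and its part in the response was not tested. Cytosolic ribosomal protein genes (47) and mitochondrially encoded genes (13) gave 0 calls by edgeR and medians of -0.07 and -0.05. At an unadjusted p under 0.05 there were 0 and 0, and DESeq2 called 0 and 0.

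The difference between the responses of E2F1-silenced and control cells was tested directly. It was called in 104 of 15185 genes (0.685%), 57 higher and 47 lower with E2F1 siRNA, and 1544 had an unadjusted p under 0.05. Among the 104, the control response was called and smaller with E2F1 siRNA in 63, called and larger in 22, and not called in 19. The count moved with the fit: it was 696 with the replicate block, 21 when only the 4 groups were fitted, 22 without a filter on low counts, 250 without replicate 3 of control siRNA with vehicle, and 29 to 84 without 1 of the other 11 libraries. Of 33 differences named here, 18 stayed called whichever of the 12 libraries was left out, 16 lost the call without a filter on low counts and 19 lost it when only the 4 groups were fitted. With the replicate block a further 30 differences of the genes chosen for naming were called, 11 higher and 19 lower with E2F1 siRNA, with adjusted p from 0.000629 (PFKFB2) to 0.0493 (KRT18). The higher ones included PFKFB2, FKBP5, PMEPA1, MAF, LAT2, NCOA2 and ACTA2. The lower ones included CCNA2, CCNE2, CDC25A, CKS2, E2F7, E2F8, RRM2, MKI67, AURKA, KIF20A, KIF4A, RACGAP1, MYC, NOP16, CASP2, CTBP1, HEPACAM and VIM.

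Responses that were larger with E2F1 silenced included those of NCAPD3, TBRG1, LRRC16A, ANKRD37 and JAG1. NCAPD3, a condensin II subunit at chromosome 11, 134150119 to 134225454, had 107, 113 and 113 CPM with vehicle and 1163, 1069 and 1115 with R1881. In control cells it had 113, 121 and 121 and 279.9, 260.1 and 352. The pools were alike with vehicle, and with R1881 every E2F1 siRNA library stood above 3 times the level of every control library. The response was 3.33 ± 0.15 against 1.33 ± 0.14, a difference of 2.00 ± 0.20 (adjusted p = 2.48e-04). JAG1, a Notch ligand, rose from 41.7 ± 3.51 to 121 ± 5.71 CPM, and from 103 ± 8.23 to 156 ± 13.0 in control cells (difference 0.93 ± 0.14, adjusted p = 0.00469). TBRG1, LRRC16A, a regulator of actin capping, and ANKRD37 had responses larger by 0.71 ± 0.10, 0.79 ± 0.10 and 1.51 ± 0.22 (adjusted p = 0.00364, 0.00264 and 0.00469). These 5 calls held without any 1 library. DUSP27 rose by 2.21 ± 0.27 with E2F1 siRNA (adjusted p = 1.55e-05), where the control response was 0.15 ± 0.23 (adjusted p = 0.694), and the difference was 2.06 ± 0.36 (adjusted p = 0.0138, lost without 1 of the 12 libraries). The ST6GALNAC1 response was larger by 1.45 ± 0.31 (adjusted p = 0.0484, lost without any 1 of 11). A fall was deeper for CBLN2, a secreted synaptic protein, at -2.29 ± 0.15 against -1.12 ± 0.14 (difference -1.17 ± 0.20, adjusted p = 0.0138, lost without any 1 of 3).

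Other genes fell less or changed direction. MYLK, myosin light chain kinase, had 19.3, 19.4 and 24.0 CPM with E2F1 siRNA and vehicle and 10.7, 10.6 and 9.19 with R1881. In control cells it had 62.9, 58.9 and 77.4 and 7.75, 6.00 and 10.3. It fell under both pools without overlap, from a vehicle level that was lower in every E2F1 siRNA library than in every control library, and the R1881 levels overlapped in part (responses -1.04 ± 0.17 and -3.06 ± 0.17, difference 2.01 ± 0.23, adjusted p = 8.45e-04). ATXN1, ataxin-1, went from 27.0, 31.1 and 26.9 to 37.8, 38.8 and 34.8 CPM with E2F1 siRNA and from 41.3, 40.3 and 35.8 to 19.6, 20.3 and 20.4 with control siRNA. The silenced cells thus raised it (0.39 ± 0.10, adjusted p = 0.00854) where control cells lowered it (-0.96 ± 0.10, adjusted p = 2.23e-06), a difference of 1.35 ± 0.14 (adjusted p = 2.48e-04). Its rise with E2F1 siRNA was not called without a filter on low counts or when only the groups compared were fitted. NPC1, which exports cholesterol from lysosomes, went the other way: -0.38 ± 0.06 with E2F1 siRNA and 0.40 ± 0.06 with control, both called, a difference of -0.79 ± 0.09 (adjusted p = 8.45e-04). In all, 10 of the 104 genes were called in opposite directions under the 2 pools. VSIG10L (0.71 ± 0.18 and -1.15 ± 0.17), SLC29A1 (-0.56 ± 0.19 and 0.67 ± 0.19) and CYP2J2, an epoxygenase (-0.53 ± 0.14 and 0.47 ± 0.15), were among them, with differences of 1.86 ± 0.25, -1.23 ± 0.27 and -0.99 ± 0.20 (adjusted p = 0.00264, 0.0484 and 0.0338). The SLC29A1 and CYP2J2 differences were lost without any 1 of 11 and of 9 libraries. The CYP2J2 fall with E2F1 siRNA was not called without replicate 2 of vehicle (log2 -0.452) or without replicate 3 of R1881 (log2 -0.454).

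Genes that fell with control siRNA and had a higher response with E2F1 silenced included LNX2, a ubiquitin ligase (-0.37 ± 0.09 against -1.23 ± 0.09), RCAN2, a calcineurin regulator (-0.91 ± 0.17 against -2.45 ± 0.19), the muscle protein gene NEB (-0.79 ± 0.18 against -2.31 ± 0.18) and P3H2, a collagen hydroxylase (0.40 ± 0.21, adjusted p = 0.376, against -1.29 ± 0.16). Their differences had adjusted p of 0.00469, 0.0123, 0.0123 and 0.00647. Genes that rose with control siRNA and had a lower response with E2F1 silenced included TM4SF1, a tetraspan membrane protein (2.40 ± 0.20 against 4.06 ± 0.23), SERPIND1, heparin cofactor II (0.28 ± 0.13, adjusted p = 0.168, against 1.59 ± 0.18) and SLC16A10, an aromatic amino acid transporter (-0.38 ± 0.14, adjusted p = 0.0765, against 0.87 ± 0.14). Those differences had adjusted p of 0.0206, 0.0116 and 0.00781. SLC16A10 was called as fallen with the block (adjusted p = 0.0234). ZFP36L2, an RNA-binding decay factor, fell with E2F1 siRNA (-0.75 ± 0.13, adjusted p = 4.78e-04), and its control response was 0.22 ± 0.13 (adjusted p = 0.215, difference -0.97 ± 0.18, adjusted p = 0.0206). Leaving out 1 library ended the TM4SF1 and ZFP36L2 differences in 6 of 12 fits each, and those of RCAN2 and NEB in 2 each.

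**Figure D4:**
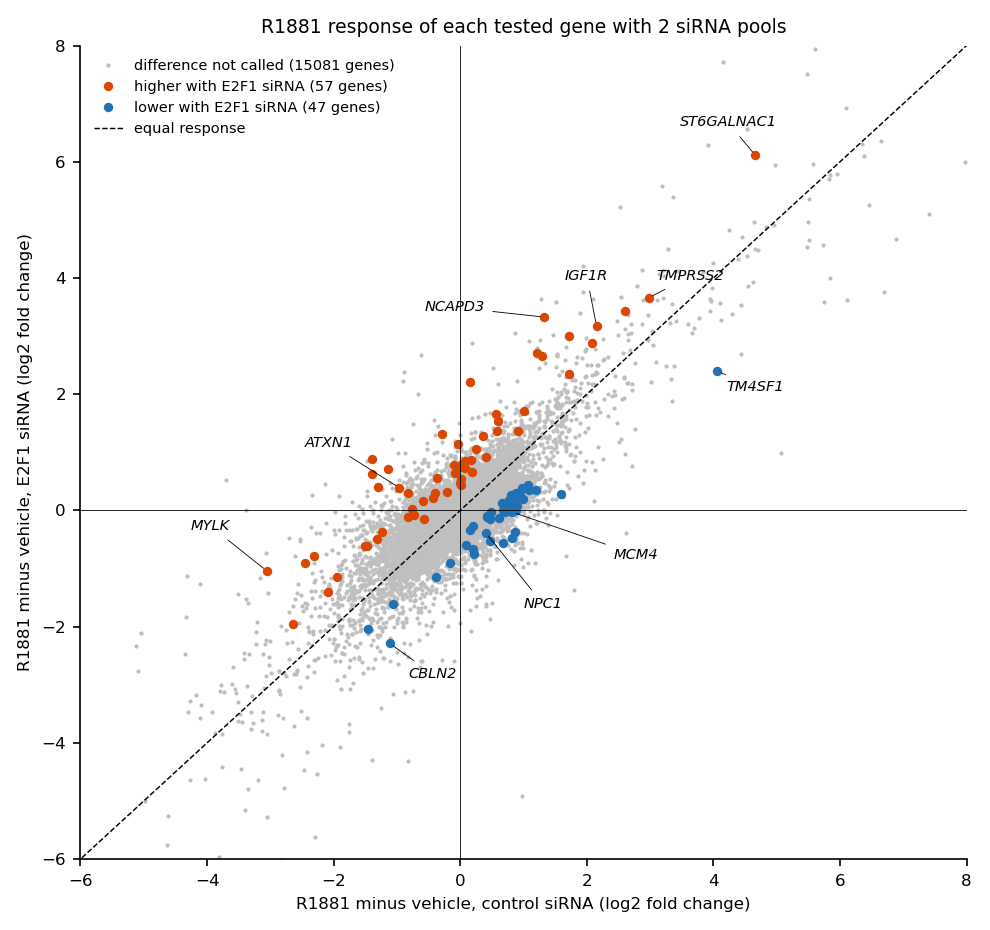
R1881 response of the 15185 tested genes with control siRNA (horizontal axis) and with E2F1 siRNA (vertical axis), both as log2 fold change. Grey points are genes whose responses did not differ by the test, and coloured points are the 57 genes with a higher and the 47 with a lower response under E2F1 siRNA. The dashed line marks equal responses, and 11 genes lie outside the axes. MCM4 lies at 0.82 with control siRNA and -0.03 with E2F1 siRNA, and NCAPD3 at 1.33 and 3.33.

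E2F2 silencing gave a second reference, in 6 further libraries. The responses with E2F1 and E2F2 siRNA differed in 250 genes (1.65%), 131 higher and 119 lower with E2F1 siRNA, and 49 of the 104 genes above were among them. The 2 tests share the E2F1 siRNA libraries. IGFBP3 had 82.0, 81.9 and 64.2 CPM with E2F1 siRNA and vehicle and 17.1, 22.1 and 19.0 with R1881, and 13.8, 15.1 and 12.2 and 26.0, 33.7 and 26.7 with E2F2 siRNA. It fell with E2F1 and control siRNA (responses -1.97 ± 0.17 and -2.03 ± 0.17) and rose with E2F2 siRNA (1.08 ± 0.17), a difference between the E2F pools of -3.05 ± 0.24 (adjusted p = 6.80e-06). KLK3 rose less with E2F1 than with E2F2 siRNA, with a difference of -1.55 ± 0.17 (adjusted p = 9.35e-05). CAMK2N1 fell further with E2F1 siRNA (difference -1.37 ± 0.13, adjusted p = 2.38e-05). CDC6 and TYMS rose by 1.11 ± 0.10 and 0.72 ± 0.09 with E2F2 siRNA, and their responses were lower with E2F1 siRNA, with differences of -0.75 ± 0.13 and -0.53 ± 0.12 (adjusted p = 0.00701 and 0.0351). The TYMS difference was lost without any 1 of 10 of the 12 libraries. NCAPD3 and MYLK differed from E2F2 siRNA as they did from control, by 1.88 ± 0.20 and 2.00 ± 0.23 (adjusted p = 7.60e-05 and 1.77e-04). BVES, a membrane protein of epithelia and muscle, gave 0.07 ± 0.23 with E2F1 siRNA (adjusted p = 0.901) and -2.82 ± 0.20 with E2F2 siRNA (difference 2.89 ± 0.30, adjusted p = 7.60e-05). GRIN3A, a glutamate receptor subunit, rose by 0.56 ± 0.09 with E2F1 siRNA and by 2.80 ± 0.11 with E2F2 siRNA (difference -2.23 ± 0.14, adjusted p = 9.83e-07).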

How the data were processed

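RNA of 18 LNCaP libraries in 6 groups of 3 was analysed, with groups and replicate numbers taken from the labels. The authors deposited 1 table of gene counts, in whole reads. Per the submitters' processing notes CASAVA 1.8.2, TopHat2 2.0.13, Picard 1.97 and Subread 1.6.4 were used with GRCh38. The strand setting and the treatment of reads that map to several places are not given in the sources used here. Libraries held 10930204 to 14819879 counts over 58037 genes.

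Genes were filtered with filterByExpr (minimum count 10, minimum total 15), which left 15185, and scaled with TMM in R 4.3.3. edgeR 4.0.16 (glmQLFit and glmQLFTest) fitted 6 group means to all 18 libraries, and p-values were Benjamini-Hochberg adjusted over all tested genes and called at 0.05. The difference between responses was a contrast of the same fit. On simulated counts the script was tested before use. Alternatives were RLE scaling, other filters, DESeq2 1.42.0, limma-voom (limma 3.58.1), stricter thresholds and a fit to the groups compared only. Further ones were a replicate block, replicates 1 and 2 only, and each single library left out in turn. Identifiers of 13315 tested genes matched GENCODE 29 by version. Symbols are those of the table.

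Samples with the same replicate number deviated together: the correlation of deviations from group means was 0.17 to 0.50 in the 3 pairs of the E2F1 siRNA response and 0.13 to 0.80 in the 18 pairs of the difference from control. The numbers were therefore taken to pair the samples, and blocked values or counts are given for part of the calls that change. Replicate 3 stood apart in every group, and deviations from a mean of 3 sum to 0. These correlations therefore cannot tell pairing of all 3 numbers from a shared shift of replicate 3 alone. Not every list count that changed with the block is given above. Responses called smaller than with control went from 1 to 9 of 22 G1 genes and from 2 to 7 of 16 deoxynucleotide genes. Rises with E2F1 siRNA went from 17 to 22 of 25 sterol genes and from 28 to 32 of 34 ER genes, and p53 target falls from 12 to 15 of 29. The pairing comes from the data, since the labels name no shared day or culture.

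Named genes were E2F1 and E2F2, the 12 largest non-overlapping rises and falls at a mean log2 CPM of at least 1, up to 4 called genes per list with the smallest p (or 2 where none was called), the 8 largest differences in each direction, 6 called control responses that were smaller and 6 that were larger, and a panel of known genes; some genes that the rule names are not reported here. MCM10, POLD2, CDK1 and KIF18A, the ends of list ranges, were named after their values were seen. The members and gene lists were chosen with earlier results of these data known.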

Additional observations from a re-analysis of the deposited data

Results flagged for a closer look

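The R1881 response with E2F1 siRNA differed from that with control siRNA, by the test of the difference itself, in 33 of the genes named. Values are log2 differences, E2F1 minus control siRNA. Among genes of androgen action and growth signalling they were 1.45 for ST6GALNAC1, 0.68 for TMPRSS2, 1.01 for IGF1R and 0.47 for IGF2R. Among genes of DNA synthesis, repair and division they were -0.72 for FEN1, -0.84 for CDC6, -0.85 for MCM4, -0.80 for TYMS, -0.64 for UBE2T, -0.60 for BIRC5, -1.23 for the nucleoside transporter SLC29A1, -1.29 for the histone gene HIST1H2AM and 2.00 for the condensin gene NCAPD3. Other responses were higher with E2F1 siRNA: MYLK 2.01, DUSP27 2.06, BST2 2.03, VSIG10L 1.86, P3H2 1.70, RCAN2 1.54, NEB 1.52, ANKRD37 1.51, ATXN1 1.35, JAG1 0.93, LNX2 0.86, LRRC16A 0.79 and TBRG1 0.71. The rest were lower: TM4SF1 -1.66, SERPIND1 -1.31, SLC16A10 -1.25, CBLN2 -1.17, CYP2J2 -0.99, ZFP36L2 -0.97 and NPC1 -0.79.

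The response also differed from that with E2F2 siRNA in 42 of the genes chosen for naming. Values are given, as E2F1 minus E2F2 siRNA, only for the largest differences and for genes of the panel. Genes called without a value here included FEN1, MCM4 and NPC1, lower with E2F1 siRNA, and JAG1, ATXN1, LNX2, LRRC16A, TBRG1 and IGF2R, higher with it. Among androgen-regulated genes the differences were 0.53 for TMPRSS2, -1.55 for KLK3 and -1.37 for CAMK2N1. They were -0.75 for CDC6, -0.53 for TYMS, -0.55 for BIRC5 and 1.88 for NCAPD3. Contractile genes had 1.89 for ACTA2 and 2.00 for MYLK. The growth factor binding gene IGFBP3 had -3.05 and SERPIND1 -2.83. Higher responses with E2F1 siRNA were those of BVES at 2.89, SOCS2-AS1 at 2.30, MYNN at 2.22, TMTC2 at 1.87 and SGK223 at 1.86. SOCS2-AS1 is an antisense gene, and without a known strand setting its reads cannot be told apart from those of its partner. Lower responses were those of GRIN3A at -2.23, S1PR3 at -1.85, PTPRR at -1.67, SMIM3 at -1.66 and IL1RN at -1.64. KCNK3 had -5.25, a fitted value that rests on 0 counts in E2F1 siRNA with R1881 and is no measure of size. With each of the 12 libraries left out in turn, the call was lost in 12 fits for TMPRSS2, 10 for TYMS, BIRC5 and PTPRR, 8 for SMIM3 and 1 for SGK223, and in 0 for the other genes of this paragraph.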

How the results depend on the processing

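The R1881 response with E2F1 siRNA gave 3009 genes and stayed within 1.5 times of that count under RLE scaling, both other filters, DESeq2, limma-voom, the fit restricted to its own groups and each library left out (2330 to 2706). It gave 1977 at an adjusted p under 0.01, 1133 at 2-fold or more, 4661 with the replicate block and 5829 in replicates 1 and 2 only. The difference from control siRNA (104 genes) gave 25 at an adjusted p under 0.01, 25 at 2-fold or more, 22 without a filter on low counts, 350 with DESeq2, 696 with the replicate block, 1844 in replicates 1 and 2 only, 21 when only the groups compared were fitted, and 29 (without replicate 2 of control siRNA with R1881) to 250 (without replicate 3 of control siRNA with vehicle) when 1 library was left out. The difference from E2F2 siRNA (250 genes) gave 93 at an adjusted p under 0.01, 99 at 2-fold or more, 116 without a filter, 406 with DESeq2, 732 with the replicate block, 1637 in replicates 1 and 2 only, and 129 to 198 with 1 library left out. For that difference 16 of 18 pairs of same-numbered samples had a correlation over 0.1 (lowest -0.02), so the block is given as a count only. The sign of 3 responses that were not called changed with 1 library left out: MT-ND1 was 0.031 without replicate 3 of vehicle, MYC 0.027 without the same library, and BVES -0.052 without replicate 1 of R1881 and -0.081 without replicate 3 of vehicle. Over the leave-outs MT-ND1 ran from -0.23 to 0.031, MYC from -0.29 to 0.027 and BVES from -0.081 to 0.24. The cause was not tested. Precision is limited by 3 libraries a group and, for genes with few counts, by depth.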
